A study of Mus musculus with 6 samples.

Results

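The miR-29 family comprises 7 mature miRNAs of the mouse: the guide strands miR-29a-3p, miR-29b-3p and miR-29c-3p and the passenger strands miR-29a-5p, miR-29b-1-5p, miR-29b-2-5p and miR-29c-5p. They were taken by name from a table of 1966 miRNAs, and all 7 were found. miRNAs were sequenced from total RNA of the heart in 6 wild-type mice, all male, with 1 library per mouse and 8 weeks between surgery and sampling. Mice 47, 68 and 69 had sham surgery, and mice 29, 78 and 81 had transverse aortic constriction (TAC), in which the aorta is narrowed and the left ventricle pumps against a lasting pressure load. Strain and age were not given in the sources used here.

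A miRNA hairpin is cut into a duplex, of which the guide strand is loaded into Argonaute and the passenger strand is mostly degraded. The guide pairs through its seed, bases 2 to 8, with sites in mRNAs and lowers their stability and translation. miR-29 is known for targets among mRNAs of the extracellular matrix, such as fibrillar collagens, elastin and fibrillin. In the heart it is known as abundant in fibroblasts, as lowered next to infarcts, and as repressed by TGF-beta, the main signal for matrix production. In cardiomyocytes it has also been described as promoting hypertrophy.

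The guide sequences are shown because they decide which reads can be told apart and which mRNAs can be bound. They are RefSeq entries of build GRCm38.p6, written 5′ to 3′ with the seed in capitals.
miR-29a-3p: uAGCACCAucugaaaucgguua
miR-29b-3p: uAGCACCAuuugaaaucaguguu
miR-29c-3p: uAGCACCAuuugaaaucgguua
All 3 guides had the same seed, and they were the only 3 rows with it among the 1675 rows of the table that had a RefSeq sequence. With positions counted from 1 at the 5′ end, miR-29a-3p and miR-29c-3p differed over 22 bases by 1 substitution, C10U. miR-29a-3p and miR-29b-3p differed by 4, namely C10U, G18A, U21G and A22U. The last 6 bases of miR-29b-3p, which in human cells are described as a signal for import into the nucleus, ended 1 of the 7 members.

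The passenger strands carried 4 different seeds, and none of them was the guide seed. Those of miR-29b-1-5p and miR-29b-2-5p overlap, as both hold UGGUUU, shifted by a single base.
miR-29a-5p: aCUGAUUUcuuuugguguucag
miR-29b-1-5p: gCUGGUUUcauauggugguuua
miR-29b-2-5p: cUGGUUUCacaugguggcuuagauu
miR-29c-5p: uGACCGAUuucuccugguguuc

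The family is made from 4 hairpins in 2 pairs. On chromosome 6, minus strand, the hairpin of miR-29a lies 275 bases from that of miR-29b-1, with miR-29a-3p at chr6:31062673-31062694 and miR-29a-5p at chr6:31062711-31062732. No other gene overlapped these mature sequences in the annotation (GENCODE M21, basic set, on the mm10 assembly). On chromosome 1, plus strand, the hairpin of miR-29b-2 lies 426 bases from that of miR-29c, with miR-29c-3p at chr1:195037600-195037621 and miR-29c-5p at chr1:195037562-195037583. These rows lie in an intron of the noncoding RNA A330023F24Rik on the same strand and in an exon of Cd46, a complement regulator, on the opposite strand. The strand setting of the counting was not given, so reads of Cd46 and of the chromosome 1 rows cannot be told apart by strand.

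miR-29b-3p is encoded in both pairs, at chr6:31063025-31063047 and at chr1:195037091-195037113, and both hairpins are shown with the mature arms in capitals.
Mir29b-1: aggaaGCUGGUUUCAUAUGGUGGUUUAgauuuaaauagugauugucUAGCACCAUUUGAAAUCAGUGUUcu
Mir29b-2: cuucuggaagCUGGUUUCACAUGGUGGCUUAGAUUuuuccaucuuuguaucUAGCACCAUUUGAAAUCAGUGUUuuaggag
The 3′ arms are identical, so the count of miR-29b-3p cannot be assigned to either hairpin. Reads that align to several places appear to have been entered once for each place in the deposited table, because miR-199a-3p, with 2 places, had between 2.0001 and 2.0004 times the count of the identical miR-199b-3p in every library. The count of miR-29b-3p may therefore be close to double the number of its reads. It was odd in 1 of the 6 libraries, so not every read was counted at both places. No other row overlapped a place of a member on either strand.

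The reverse complement of the seed, TGGTGCT, marks possible miR-29 sites, and the fuller match has an A after it. Among 25 mRNAs listed as known or possible targets, 22 had the 7-base match in their longest annotated 3′ UTR and 17 had the fuller match, searched on the mRNA strand. Over all 20951 protein-coding genes the shares were 13.1% and 2.85%, at a median 3′ UTR length of 955 bases against 1423 for the list. Because the list was chosen as miR-29 targets, its higher share of matches is not independent of that choice. Of the 10 collagen mRNAs listed, 9 had the 7-base match and 8 the fuller one, and these sites from 4 matrix mRNAs show the letters that the guides pair with (GENCODE M21 transcripts, match in capitals).
Col1a1, chr11:94952523-94952549, plus strand: gtgggaaggaatttcTGGTGCTAtaga
Col3a1, chr1:45348967-45348993, plus strand: ttcaaaatgtctcaaTGGTGCTAtaat
Eln, chr5:134703732-134703758, minus strand: cgacctcatcaacgtTGGTGCTActgc
Fbn1, chr2:125301169-125301195, minus strand: tttctgttgtctgttTGGTGCTAgtaa
Col1a1 and Col3a1 encode chains of the fibrillar collagens of scar tissue, Eln encodes elastin and Fbn1 encodes fibrillin. Nid1, Sparc and Col1a2 had no match in the 3′ UTR searched. The mRNAs themselves were not measured in these samples, and a match is a description of the sequence, not of binding.

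Library totals ranged from 1226187 to 3509001 counts. The tissue label was checked against 6 heart muscle miRNAs, which together held between 17.0% and 28.4% of counts. The group labels, sham and TAC, were taken as given and were not checked against a marker of pressure load. Scaling differed by group: the TMM factors, which multiply the totals, were 1.10 to 1.13 in sham and 0.868 to 0.921 in TAC. The share of miR-1a-3p, the largest single row, was 12.7% to 15.6% in sham and 19.0% to 22.0% in TAC. Levels below are CPM, counts in proportion to the library total after this TMM scaling. A read covers a whole mature miRNA, so levels of different miRNAs were set side by side without division by length.

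The family was dominated by a single guide. miR-29a-3p was at 2826, 2325 and 2395 CPM in sham mice 47, 68 and 69, against 183, 150 and 155 CPM for miR-29b-3p and 62.9, 45.7 and 47.8 CPM for miR-29c-3p. Over all libraries miR-29a-3p had 42.9 times the counts of miR-29c-3p and 14.3 times those of miR-29b-3p. Of all guide counts, miR-29a-3p held between 89.4% and 92.3% in every mouse. It ranked 39th of all rows by mean CPM. With miR-29b-3p taken at its full count, the order of the 3 guides was the same in every mouse, and their ranges did not overlap. It was also the order if each count of miR-29b-3p were a read counted at both places, because miR-29c-3p was at 30.5% to 36.1% of it.

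Passenger strands made up 0.972% to 1.32% of the family's counts. miR-29c-5p was the most abundant, at 25.1, 15.1 and 27.0 CPM in sham 47, 68 and 69 and 33.9, 23.5 and 30.1 CPM in TAC 29, 78 and 81. miR-29b-2-5p followed with 6 to 20 counts per library, miR-29a-5p with 1 to 10 and miR-29b-1-5p with 0 to 2. In sham the ranges of neighbours in this order did not overlap. In TAC the ranges of miR-29b-2-5p and miR-29a-5p overlapped, and so did those of miR-29a-5p and miR-29b-1-5p. miR-29b-1-5p was at 0 in sham 68, sham 69 and TAC 81, where a count of 0 allows up to 1.65, 1.33 and 2.45 CPM of the unscaled library total. The most abundant guide came with a rare passenger: miR-29a-3p had 35509 counts over the 6 libraries and miR-29a-5p had 33.

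**Figure D1:**
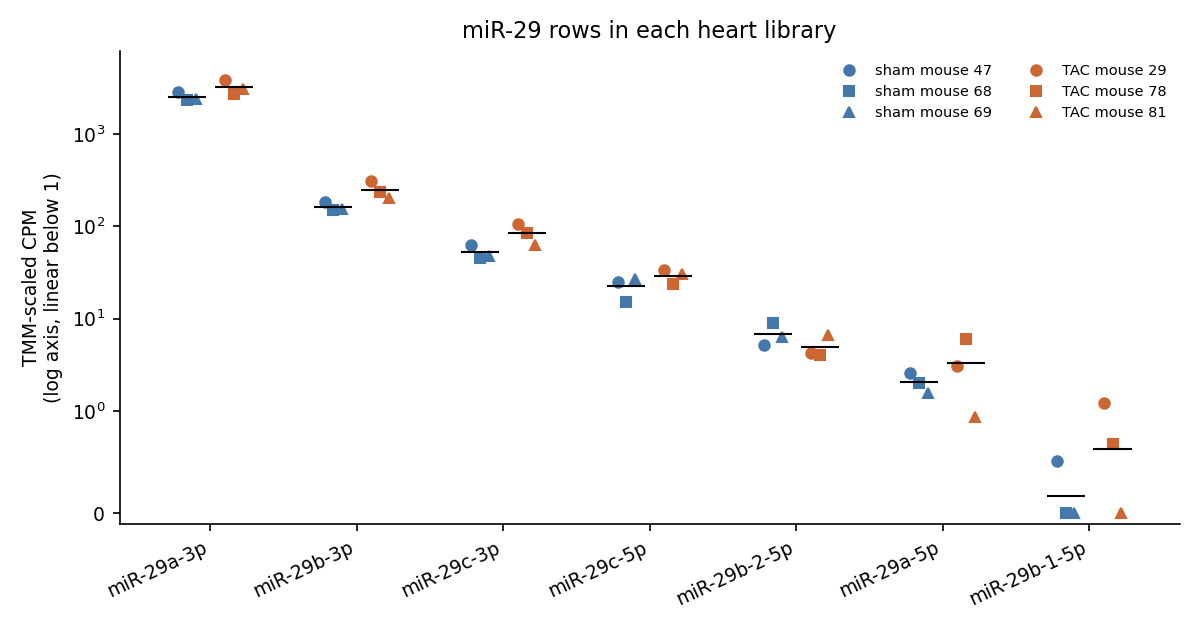
TMM-scaled CPM (log axis, linear below 1) of the 7 miR-29 miRNAs in each of 3 sham (blue) and 3 TAC (orange) mice, with black lines at group means. miR-29a-3p lies between 2325 and 3895 CPM, and the guides miR-29b-3p and miR-29c-3p lie far below it in every mouse.

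The groups were set against each other to see how the family's levels differ under a lasting pressure load. Both minor guides were higher in TAC: miR-29b-3p rose from 162 ± 17.7 to 249 ± 54.8 CPM and miR-29c-3p from 52.1 ± 9.39 to 84.6 ± 22.5 CPM (SD, n = 3 each). The main guide miR-29a-3p, at 2515 ± 271 and 3216 ± 618 CPM, did not pass the test, and neither did the 2 passengers that could be tested. None of the 5 members tested was called lower. The test was edgeR's quasi-likelihood test over the 354 miRNAs that passed its low-count filter, with Benjamini-Hochberg adjustment over all of them and calls at an adjusted p under 0.05. By that rule 108 of 354 miRNAs, 30.5%, were called, 68 of them higher in TAC (19.2%) and 40 lower (11.3%). Among the 151 miRNAs whose mean level reached 100 CPM, miR-29a-3p and miR-29b-3p included, 48 were called higher (31.8%). A log2 change above 0 was found for 4 of the 5 tested members and for 193 of the 354 miRNAs (54.5%). With 5 members tested these counts are too small to set the family apart from that background. In bulk tissue, more cells that contain a miRNA and more of it per cell cannot be told apart.

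miR-29b-3p was at 183, 150 and 155 CPM in sham 47, 68 and 69, from 714, 298 and 396 counts. In TAC 29, 78 and 81 it was at 310, 234 and 203 CPM, from 512, 349 and 216 counts. Every TAC mouse was above every sham mouse, as in 104 of the 354 tested miRNAs (29.4%). In either direction the groups did not overlap for 182 of them (51.4%), against 1 of the 5 tested members. The change was 1.53-fold, or 0.62 ± 0.18 on the log2 scale (edgeR adjusted p = 0.0319). The call was lost without sham 68, sham 69, TAC 29 or TAC 78, with log2 changes of 0.57, 0.57, 0.42 and 0.65 (edgeR adjusted p = 0.08, 0.0856, 0.113 and 0.0686). It was held without sham 47 and without TAC 81, at 0.74 each.

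miR-29c-3p was at 62.9, 45.7 and 47.8 CPM in the sham mice, from 246, 91 and 122 counts, and at 107, 84.6 and 62.0 CPM in TAC 29, 78 and 81, from 177, 126 and 66 counts. The groups overlapped, as TAC 81 lay just below sham 47. The change was 1.62-fold, or 0.70 ± 0.23 on the log2 scale (edgeR adjusted p = 0.0464). The call was lost when any 1 of the same 4 mice was left out: without sham 68, sham 69, TAC 29 or TAC 78 the log2 change was 0.62, 0.62, 0.49 and 0.69 (edgeR adjusted p = 0.109, 0.124, 0.152 and 0.114). Without sham 47 or TAC 81 it was 0.89 and 0.87, and the call was held.

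miR-29a-3p was at 2826, 2325 and 2395 CPM in sham and at 3895, 2688 and 3063 CPM in TAC. TAC 29 was the highest library and TAC 78 lay below sham 47, so the groups overlapped. Its change of 0.35 ± 0.14 on the log2 scale, 1.28-fold, did not pass (edgeR adjusted p = 0.084, unadjusted p = 0.0328). It did not pass with any mouse left out either, and its lowest value there was 0.19, without TAC 29.

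Of the passengers, miR-29c-5p was at 0.36 ± 0.25 on the log2 scale (edgeR adjusted p = 0.283) and its groups overlapped. With 1 mouse left out it ranged from 0.18, without sham 68, to 0.50, without TAC 78. miR-29b-2-5p was at 5.11, 9.03 and 6.27 CPM in sham and at 4.23, 4.03 and 6.58 CPM in TAC, a log2 change of -0.45 ± 0.41 (edgeR adjusted p = 0.403). With 1 mouse left out it ranged from -0.67, without TAC 81, to -0.22, without sham 68. miR-29a-5p and miR-29b-1-5p, with 33 and 5 counts over the 6 libraries, did not pass the low-count filter and were not tested. At these depths no change of these 2 passengers could be tested.

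**Figure D2:**
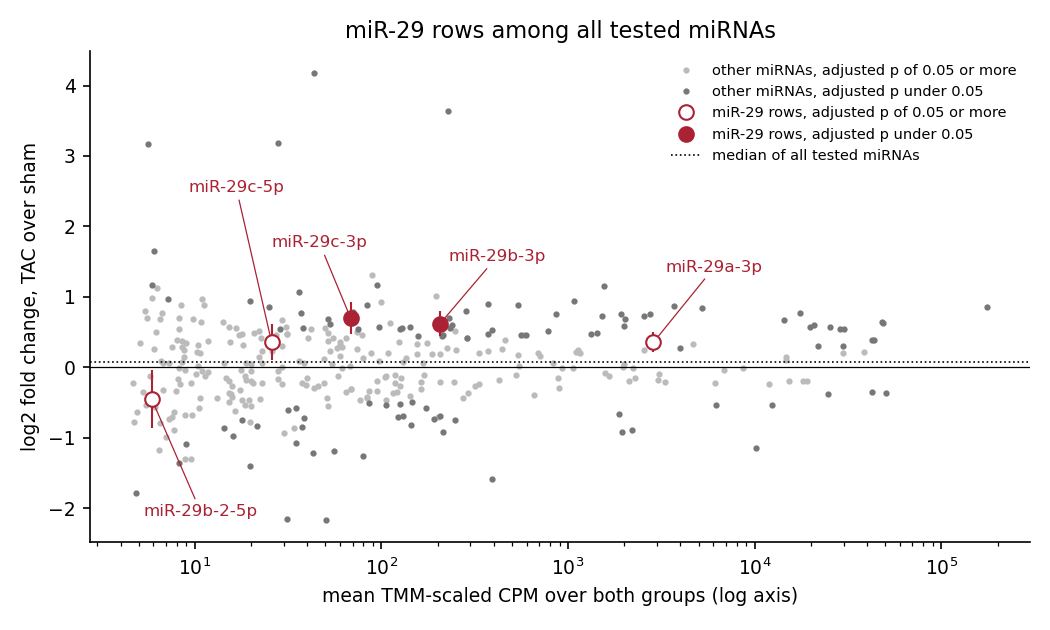
Log2 fold change of TAC over sham against mean TMM-scaled CPM (log axis) for 354 tested miRNAs, with the 5 tested miR-29 miRNAs in red (bars are standard errors, filled symbols have an edgeR adjusted p under 0.05). The 3 guides lie at 0.35, 0.62 and 0.70, above the dotted median of all tested miRNAs at 0.07.

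The log2 changes of the guides depended on the scaling between libraries. As shares of the total counts, without TMM scaling, the 7 members together held 0.346%, 0.279% and 0.297% in sham 47, 68 and 69. In TAC 29, 78 and 81 they held 0.401%, 0.276% and 0.292%, so the groups overlapped. With library totals in the edgeR fit the log2 changes of miR-29a-3p, miR-29b-3p and miR-29c-3p were 0.05, 0.31 and 0.40, and none was called (adjusted p = 0.829, 0.238 and 0.231). That scaling moved the median of all tested miRNAs from 0.07 to -0.24. Relative to the median of all miRNAs, miR-29a-3p lay 0.28 higher on the log2 scale with each of 5 scalings, miR-29b-3p 0.54 to 0.55 higher and miR-29c-3p 0.62 to 0.63 higher. A change of scaling moves all miRNAs by nearly the same amount, so these distances were almost fixed by the arithmetic. Over all 19 fits they ranged from 0.14 to 0.41 for miR-29a-3p, 0.29 to 0.70 for miR-29b-3p and 0.40 to 0.82 for miR-29c-3p. The miRNAs differ in base composition, with 40.9% G and C in miR-29a-3p, 34.8% in miR-29b-3p and 36.4% in miR-29c-3p. When a trend with this content was taken from each library the changes were 0.14, 0.28 and 0.39, and none was called (adjusted p = 0.553, 0.344 and 0.28). Over all 18 alternatives the adjusted p ranged from 0.0538 to 0.829 for miR-29a-3p, from 0.00948 to 0.344 for miR-29b-3p and from 0.0258 to 0.28 for miR-29c-3p.

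**Figure D3:**
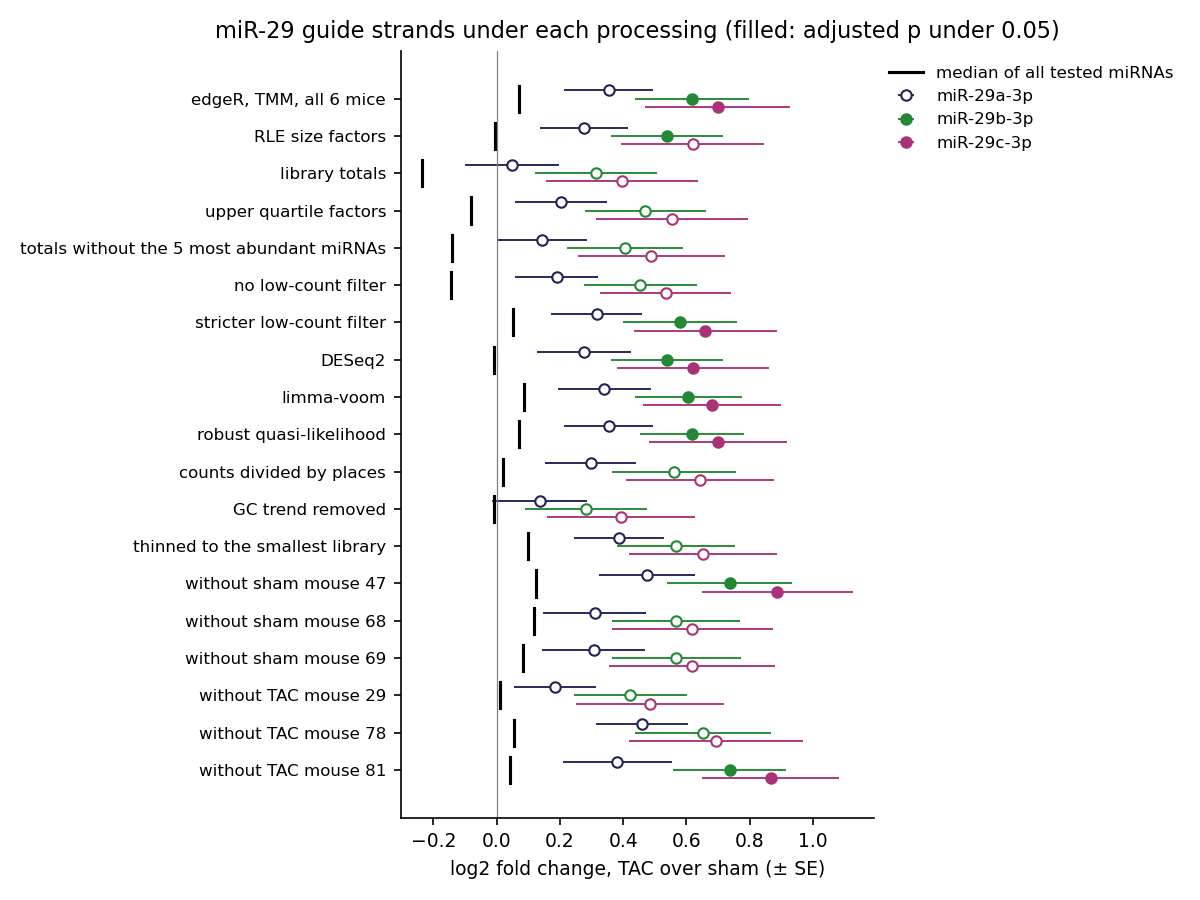
Log2 fold change of TAC over sham (points, bars are standard errors) of the 3 miR-29 guides in the reported fit and in 18 alternative fits, with black ticks at the median of all tested miRNAs. All points lie above 0, from 0.05 to 0.89, and filled points mark an adjusted p under 0.05.

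Ratios between members of the same library do not depend on scaling. They can still depend on base composition, and no GC trend was taken from the ratios. miR-29b-3p stood at 6.46%, 6.43% and 6.47% of the count of miR-29a-3p in sham 47, 68 and 69 and at 7.95%, 8.72% and 6.62% in TAC 29, 78 and 81. TAC 81 was close to the sham mice and the other TAC mice were higher. The log2 ratio averaged -3.95 ± 0.0042 over the sham mice and -3.69 ± 0.20 over the TAC mice (SD, n = 3 each), a difference of 0.26 (two-sided exact permutation p = 0.1, the smallest that 3 against 3 allows, and 0.35 adjusted over 7 ratios). Without TAC 78 the difference was 0.17 and without TAC 81 it was 0.37. The 3 sham ratios lay closer together than the counting interval of any 1 of them: in sham 68, miR-29b-3p was 6.04% of the 4930 counts of the pair, with an exact (Clopper-Pearson) 95% interval from 5.40% to 6.75%. Such intervals cover counting error only, and they take every count as a separate read. If reads of miR-29b-3p were entered at both places, its intervals are too narrow even for counting error.

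miR-29c-3p stood at 2.23%, 1.96% and 1.99% of the count of miR-29a-3p in sham and at 2.75%, 3.15% and 2.02% in TAC. TAC 29 and TAC 78 were again above every sham mouse, and TAC 81 was among them. The log2 ratio differed by 0.34 (two-sided exact permutation p = 0.2, adjusted 0.35), by 0.20 without TAC 78 and by 0.51 without TAC 81. The 2 minor guides kept closer to each other: the sham mice averaged -1.65 ± 0.10 and the TAC mice -1.57 ± 0.12 for the log2 ratio of miR-29c-3p to miR-29b-3p, a difference of 0.08 (two-sided exact permutation p = 0.4, adjusted 0.56) that ranged from 0.029, without TAC 78, to 0.15, without TAC 81, with 1 mouse left out. Since miR-29a-3p and miR-29c-3p differ by 1 base, the split of reads between their rows is uncertain, and it was not tested.

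**Figure D4:**
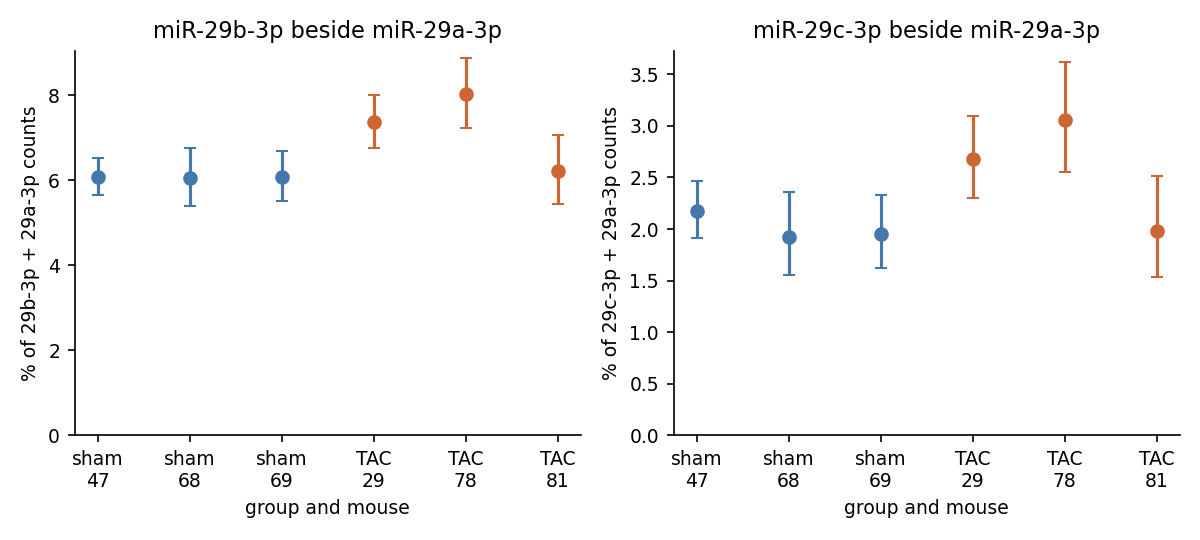
Share of miR-29b-3p (left) and of miR-29c-3p (right) in the counts of each with miR-29a-3p, in percent, per mouse, with exact 95% binomial intervals (sham blue, TAC orange). TAC 29 and TAC 78 stand above the sham mice in both panels, and TAC 81, at 6.21% and 1.98%, stands with them. The intervals take every count as a separate read. Those of the left panel are too narrow if reads of miR-29b-3p were entered at both places.

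For each of the 4 arm ratios the groups overlapped. The row of miR-29b-3p holds reads of both its hairpins, so neither ratio of miR-29b-3p to a passenger compares the arms of a single hairpin. The log2 ratio of miR-29c-3p to miR-29c-5p was 1.32, 1.58 and 0.82 in sham and 1.65, 1.83 and 1.03 in TAC (two-sided exact permutation p = 0.5). For miR-29b-3p to miR-29b-2-5p it was 5.12, 4.01 and 4.59 in sham and 6.09, 5.75 and 4.85 in TAC, a difference of 0.99 (two-sided exact permutation p = 0.2). The ratios of miR-29a-3p to miR-29a-5p and of miR-29b-3p to miR-29b-1-5p rest on at most 10 passenger counts per library (two-sided exact permutation p = 0.9 and 0.2). None of these 4 ratios passed after adjustment over the 7 (adjusted p from 0.35 to 0.9).

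The miRNAs whose pattern over the 6 libraries was most like that of each guide were sought among 149 others with a mean of at least 100 CPM, by the root mean square difference of centred log2 CPM. For miR-29a-3p they were miR-186-5p, miR-145a-5p and miR-22-3p, at differences of 0.13 to 0.15. For miR-29b-3p they were miR-504-5p, miR-186-5p and miR-218-5p, at 0.14 to 0.19, and for miR-29c-3p miR-10a-5p, miR-504-5p and miR-10b-5p, at 0.18 to 0.23. The guides miR-29b-3p and miR-29c-3p were closer to each other, at 0.10, than to any of these, while miR-29a-3p was at 0.17 from miR-29b-3p and 0.25 from miR-29c-3p.

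Other miRNAs linked to cardiac matrix were set beside the family, from 2 lists. Both lists were chosen with earlier results of these data known, so their counts are a description and not independent evidence. Of 10 tested miRNAs described as restraining matrix or fibroblasts, 7 rose, 0 fell and 3 did not pass, with a median log2 change of 0.64 against 0.07 over all tested miRNAs. This list named 12 miRNAs. Of these, miR-24-3p was at 0, and miR-18a-5p, at 1.87 CPM in sham and 0.20 CPM in TAC, did not pass the low-count filter. Over all tested miRNAs 19.2% were called higher, and 31.8% of those at 100 CPM or more, where 7 of the 10 lie. miR-101a-3p went from 2044 ± 133 to 3462 ± 258 CPM, miR-101b-3p from 1927 ± 131 to 3193 ± 240 CPM and miR-150-5p, a lymphocyte miRNA, from 57.9 ± 5.23 to 131 ± 7.17 CPM (SD, n = 3 each). miR-378a-3p, which lies in an intron of the metabolic regulator Ppargc1b, rose by 0.55 ± 0.10 on the log2 scale, but with library totals its change was 0.24 and the call was lost (edgeR adjusted p = 0.0792). miR-101a-3p and miR-101b-3p are near-identical and can share reads. Of 11 tested miRNAs described as favouring matrix, 5 fell, 0 rose and 6 did not pass, with a median of -0.47, where 11.3% of all tested miRNAs were called lower. Without sham 68 or without TAC 81, 3 of the 11 fell. The split was not one-way in every fit: 1 rose and 5 fell in the robust fit, and 1 rose and 4 fell without sham 47. In the reported fit miR-155-5p was at 0.56 ± 0.19 on the log2 scale and narrowly missed a call as higher (edgeR adjusted p = 0.0523). Of the 5 that fell there, miR-214-3p fell by 1.58 ± 0.18 on the log2 scale, miR-21a-5p by 1.15 ± 0.15, miR-199a-5p by 0.89 ± 0.16 and miR-433-3p by 0.91 ± 0.24. The call of miR-433-3p was lost without sham 68 and without TAC 81 (edgeR adjusted p = 0.0512 and 0.0548). With library totals 4 of the first list rose and 7 of the second fell. With the GC trend taken out only 7 of the first list were tested, because miRNAs without a sequence were dropped, and 4 of these rose. The lists share members with the cell markers that follow: miR-133a-3p is also listed for heart muscle, miR-150-5p and miR-155-5p for leukocytes, miR-145a-5p for smooth muscle, and miR-199a-3p, miR-199a-5p, miR-199b-5p and miR-214-3p for fibroblasts and mesenchyme. Both arms of miR-199a are among the 5 of the second list that fell, and so is miR-214-3p, which is grouped with miR-199 in the transcript Dnm3os. These are therefore not 5 independent results.

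The counts of called cell markers stand beside 19.2% higher and 11.3% lower over all tested miRNAs. Of 5 fibroblast and mesenchymal miRNAs, 4 fell and 1 did not pass, and their summed share of counts was 1.54% to 2.40% in sham and 1.04% to 1.12% in TAC. All 5 are arms of miR-199a, miR-199b or miR-214, so they do not count as 5 independent markers. Of the 6 heart muscle miRNAs 5 rose, and their share was 17.0% to 20.1% in sham and 24.9% to 28.4% in TAC. Most of that share was miR-1a-3p alone, at 12.7% to 15.6% in sham and 19.0% to 22.0% in TAC. The 5 include both arms of miR-133a and miR-1a-3p, which is encoded together with miR-133, so they are not 5 independent markers. Of 3 smooth muscle miRNAs 2 rose, with shares of 3.88% to 4.78% and 5.26% to 5.64%. All 3 belong to the cluster of miR-143 and miR-145 and are not independent either. Among 5 tested leukocyte miRNAs 1 rose, close to that background, and their shares of 0.126% to 0.165% and 0.138% to 0.147% overlapped. miR-142a-3p was listed at 0. Of 2 tested red blood cell miRNAs 1 rose, with shares of 0.107% to 0.123% and 0.145% to 0.260%, and miR-486a-5p was listed at 0. Both endothelial rows, miR-126a-3p and miR-126a-5p, were at 0 in every library. Whether the 0 of these rows, of miR-142a-3p and of miR-486a-5p comes from the counting was not tested. It is not read as absence from the heart. The part of these differences in the levels of the miR-29 guides was not tested.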

How the data were processed

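The authors deposited raw counts of reads for each mature miRNA in a single table, where each mouse has a column and each miRNA its genomic positions. The submitters' processing notes name HISAT2, StringTie, DESeq2 and the mm10 build, without role or version. Which program counted the reads, how adapters were cut and which strand was counted was not stated in the labels. The 6 columns were each matched to a mouse by the animal number in the labels, and 0 were left over. The summed length of each row's places, another column of the deposited table, entered no test.

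Counts of the whole table were fitted with edgeR 4.0.16 in R 4.3.3 (quasi-likelihood test, TMM factors, filterByExpr, no covariate), and the miR-29 rows were read out. The limit behind a count of 0, taken as 3 counts, came to 0.855 to 2.45 CPM over the libraries. Ratios had 0.5 added to both counts and were compared by exact permutation (scipy 1.17.1). Mature sequences came from RefSeq tables on GRCm38.p6 and 3′ UTRs from GENCODE M21. The edgeR fit was run on simulated data, where miRNAs drawn at random were changed in either direction. No group difference in composition like that of these libraries was set there, so the choice of scaling was not tested by it. Alternatives were 4 other scalings, 2 other low-count filters (1 of them at least 10 CPM in 3 libraries), DESeq2 1.42.0, voom in limma 3.58.1, a robust fit, counts divided by places, a GC trend (local regression, span 0.75, for the 89.0% of tested miRNAs with a sequence), thinning to the smallest library and leaving out each mouse. The members and lists were chosen with earlier results of these data known. All members are named, beside the 4 called miRNAs of each matrix list with the smallest p and the 3 nearest patterns per guide.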

Additional observations from a re-analysis of the deposited data

How the results depend on the processing

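No paired analysis was possible because the groups share no animal number. The guides were higher in TAC in all 18 alternatives: miR-29a-3p ranged from 0.05 to 0.48 on the log2 scale and was called in 0, miR-29b-3p from 0.28 to 0.74 and was called in 7, and miR-29c-3p from 0.39 to 0.89 and was called in 6. The number of members called, 2 in the reported fit, was 1 with RLE size factors. It was 0 with library totals, upper quartile factors, totals without the 5 most abundant miRNAs, no low-count filter, counts divided by places and the GC trend, and 0 to 2 with 1 mouse left out. With libraries thinned in a single random draw it was 1, which was miR-29c-5p (0.83, edgeR adjusted p = 0.0318), and neither guide was called. The cause was not tested.

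Over all miRNAs, 108 calls among 354 became 65 among 315 with the GC trend, where miRNAs without a sequence were dropped. There were 64 calls without TAC 81 and 69 without TAC 78, with 64 to 83 over the fits that left out 1 mouse. The balance of 68 higher and 40 lower turned over under other scalings: RLE size factors gave 50 and 56, upper quartile factors gave 41 and 63, totals without the top 5 miRNAs gave 35 and 82, and library totals gave 25 and 102. The difference in the arm ratio of miR-29a turned from -0.15 to 0.49 without TAC 78, over fits without 1 mouse from -0.70 to 0.49. With library totals miR-145a-5p was at -0.095 and miR-22-3p at -0.030, and without the 5 most abundant miRNAs miR-145a-5p was at -0.00071. Passenger counts of at most 20 per library in 3 of the 4 passengers limit what their values can show.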

Other observations

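The list of possible targets also held mRNAs outside the matrix. Tet1, Tet2 and Tet3, which encode enzymes that oxidise methylated cytosine, had 7, 5 and 8 seed matches in 3′ UTRs of 7962, 3058 and 5669 bases, of which 1, 2 and 2 were followed by A. Dnmt3a, a DNA methyltransferase, had 5 matches in 6696 bases, and Col5a1, a minor fibrillar collagen, had 4 in 2498. Neither these mRNAs nor their proteins were measured here.

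Mouse TAC 81, the library with the lowest total, was the TAC mouse nearest to sham in each ratio of a minor guide to miR-29a-3p, a comparison made after the values were seen. Its share of miR-1a-3p, at 22.0%, was the highest of the 6 libraries.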
